A study of Mus musculus with 2 samples.

Results

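Bcl6, Il21, Sh2d1a, Tox and Tox2, 5 of the 32285 genes measured, are genes of follicular helper T cells. They were chosen by name and not by their values, though with earlier results of these data known, and all 5 had UMIs. They were followed through T cells of mouse spleen that carried Cxcr5, through T cells that carried the type 2 cytokine genes Il4, Il5 and Il13, through Foxp3+ and CD8+ T cells and through the rest of the T cells.

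The cells came from wild-type C57BL/6 mice 8 weeks old, which had all been sensitized to ovalbumin (OVA) with Alum on days 0 and 10. One group stayed without therapy. The Standard therapy group received OVA in PBS on days 20, 22 and 24 and OVA in Alum on days 40 and 60, and the DCIR2-Fp group received a fusion protein that carries OVA to the receptor DCIR2 of dendritic cells on days 20, 22 and 24. On day 80 the mice were challenged with OVA, and their spleen cells were then stimulated for 3 h with PMA and ionomycin, separated by sorting into CD11b- and CD11b+ cells within CD45+, which were mixed in equal parts, and read as 1 multiplexed pool by 3′ single-cell RNA sequencing. The deposited counts hold 16829 cell barcodes, with 0 duplicates, and 4 hashtags (9, 10, 11 and 12), which are DNA-tagged antibodies that mark the samples. The sources used here do not pair these hashtags with the 3 conditions, so therapies were not compared. Whether a therapy takes part in any value below cannot be told. With 1 pool there are no replicates, no comparison between cell groups was tested, and each interval covers counting error only.

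Follicular helper T cells are CD4+ T cells that move into B cell follicles through the chemokine receptor CXCR5 and help B cells in germinal centres. Their programme depends on the transcriptional repressor BCL6, and their help on the cytokine IL-21 and on SAP, the adaptor of the SLAM family receptors. TOX and TOX2 are high mobility group box proteins that act in T cell development, in follicular helper cells and in chronically stimulated T cells.

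Among the genes, Il21 lies on the minus strand of chromosome 3 from 37222759 to 37232636 (GRCm38, GENCODE vM21), 96800 bases from Il2, which lies on the same strand. Bcl6 lies on chromosome 16 from 23965052 to 23988852 on the minus strand, and Tox on chromosome 4 from 6686353 to 6991557 on the minus strand. Sh2d1a, which encodes SAP, lies on chromosome X from 42502453 to 42529330 and Tox2 on chromosome 2 from 163203125 to 163324170, both on the plus strand. All 5 gene identifiers in the deposited feature table are those of this annotation. The promoters of Il21 and of its neighbour Il2 are printed because T cells that carried Il21 also often carried Il2, as given further on. These 250 bases before each start come from RefSeq (GRCm38.p6), from 37232637 to 37232886 for Il21 and from 37125955 to 37126204 for Il2, both on the minus strand of chromosome 3. Capitals mark GGAAA or its reverse complement TTTCC, the core that NFAT proteins, which ionomycin activates, bind.
Il21: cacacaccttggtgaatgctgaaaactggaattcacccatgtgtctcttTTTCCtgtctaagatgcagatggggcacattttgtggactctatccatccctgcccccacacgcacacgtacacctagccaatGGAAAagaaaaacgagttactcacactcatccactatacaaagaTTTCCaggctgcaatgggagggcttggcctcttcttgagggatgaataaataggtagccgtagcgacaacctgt
Il2: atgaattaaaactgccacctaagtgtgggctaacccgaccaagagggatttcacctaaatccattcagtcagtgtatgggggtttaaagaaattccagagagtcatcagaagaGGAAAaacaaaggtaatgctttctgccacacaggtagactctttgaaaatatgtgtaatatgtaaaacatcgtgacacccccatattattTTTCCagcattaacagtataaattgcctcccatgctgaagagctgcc
The Il21 window holds 3 matches and the Il2 window 2, and 6.39% of the 32851 promoter windows of this length hold at least 3 and 21.4% at least 2. The AP-1 letters TGAGTCA or TGACTCA are in neither window and in 4.46% of all windows. A match is a description of the letters and was not tested for binding.

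A filter of 200 genes or more and no more than 10% mitochondrial UMIs left 16325 barcodes, and 2242 of these were taken as T cells by at least 2 UMIs of Cd3d, Cd3e, Cd3g and Trac and none of the B cell genes Cd79a, Ms4a1 and Ebf1. Among them, 73 cells had a Cxcr5 UMI, 57 had at least 3 UMIs of Il4, Il5 and Il13, 220 had a Foxp3 UMI and 599 a Cd8a or Cd8b1 UMI, and 64 cells met more than 1 of these rules. The rest held 1359 cells, split into 189 with Cd4, 211 with Trdc but not Cd4, and 959 with neither gene. Median depth lay between 7447 UMIs in the rest and 11401.5 in Foxp3+ cells. The rest was mixed, with 1680 CPM (UMIs per 1000000 UMIs of the same cells) over 7 NK cell genes, against 6722 in cells gated as NK cells, and with 2806 CPM over 7 myeloid genes, against 587 to 1330 and 496 to 1027 in the other T cell groups. The part of these genes in the ratios over the rest was not tested.

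The label of the Cxcr5+ cells was checked against the other markers of follicular helper cells. Of the 73 cells, 8 had a Cd4 UMI, 13 a Pdcd1 UMI and 46 an Icos UMI, while 33 met the CD8 rule and 9 the Foxp3 rule. None had a UMI of Ascl2, a transcription factor of follicular helper cells, which had no UMI in any of the 2242 T cells. None met the type 2 cytokine rule, and 0 of 73 allows a share of up to 4.11%. Because 33 of the 73 cells met the CD8 rule, the cells are called Cxcr5+ T cells and not follicular helper cells.

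In the 73 Cxcr5+ T cells as a whole the 5 genes lay within 2-fold of the rest of the T cells. Bcl6 was at 54.2 CPM (95% interval 40.4 to 71.0) against 64.8 in the rest, a ratio of 0.836 (0.619 to 1.11). Sh2d1a was at 39.6 CPM against 33.9, a ratio of 1.17 (0.815 to 1.63), and Tox2 at 17.7 against 22.9, a ratio of 0.774 (0.444 to 1.26). For these genes the interval of the ratio holds 1, so no difference was detectable at this depth. Tox was at 724 CPM (671 to 780) against 613, a ratio of 1.18 (1.09 to 1.28), and the ratio was 0.987 without the richest cell of each group. Of the 5 genes, 0 passed 2-fold in either direction, where 2.44% of 8890 genes were at least 2-fold higher and 4.66% at least 2-fold lower.

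Il21 in Cxcr5+ cells turned on 1 cell. Its level of 50.0 CPM (36.9 to 66.3) was 1.02 times that of the rest (0.744 to 1.37). However, a single cell held 26 of its 48 UMIs, and leaving that cell out gave 23.3 CPM. That cell met the CD8 rule. An Il21 UMI was found in 9 of the 73 cells, or 12.3% (5.80 to 22.1), against 8.90% (7.44 to 10.5) of the rest. A share rises with depth, and the median depth was 11122 UMIs in Cxcr5+ cells and 7447 in the rest, while free RNA can add UMIs to any cell, and NK-gated cells, which should lack Il21, had it in 0.0914% at a median of 5581 UMIs. The ratio moved with the definition of the cells, to 0.457 over the rest with a Cd4 UMI and to 2.13 in cells with at least 2 Cxcr5 UMIs.

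**Figure D1:**
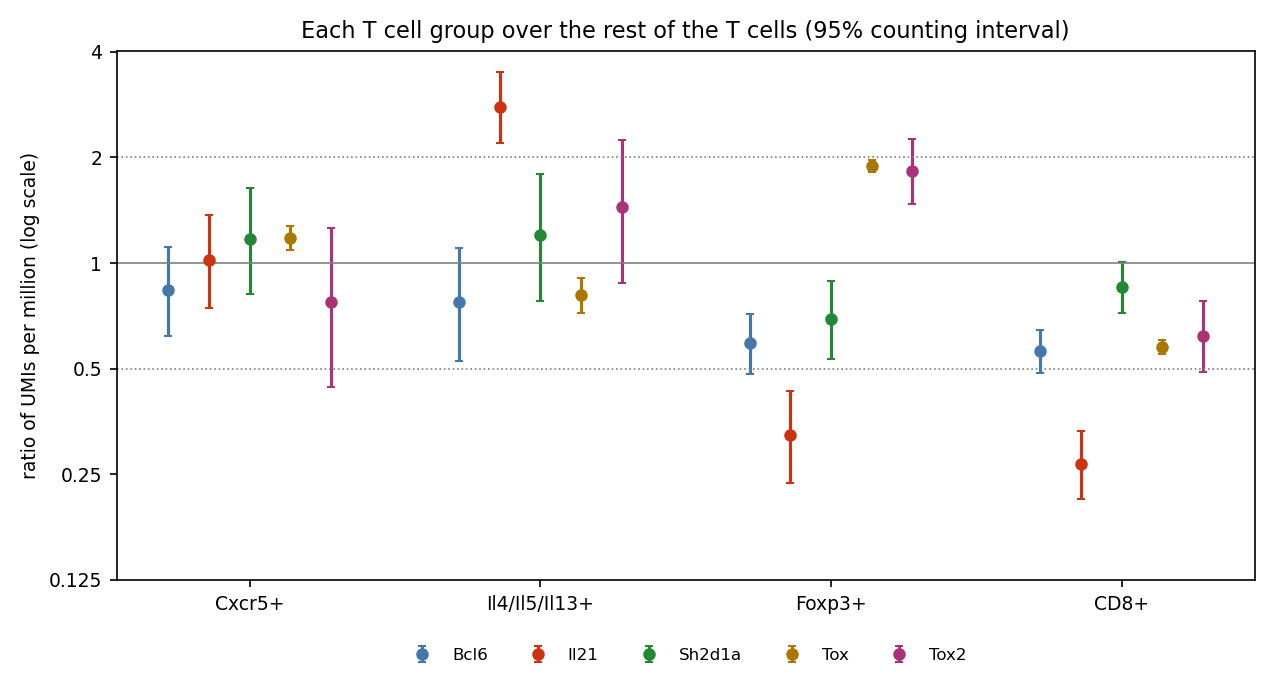
Ratio of CPM in each T cell group over the rest of the T cells, on a log axis, for the 5 genes, with 95% counting intervals as bars and lines at 1, at 2 and at 0.5. Only Il21 passes a 2-fold line, above 2 in Il4/Il5/Il13+ cells and below 0.5 in Foxp3+ and CD8+ cells, while in Cxcr5+ cells all 5 points lie between 0.774 and 1.18.

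The Cxcr5+ cells were not uniform. In the 33 that met neither the CD8 nor the Foxp3 rule, Bcl6 was at 73.7 CPM (47.2 to 110), Il21 at 30.7 (14.7 to 56.5) and Tox at 491 (418 to 574). In the 33 that met the CD8 rule, Bcl6 was at 45.3 CPM (29.0 to 67.3) and Tox at 415 (362 to 473). Il21 was at 69.8 CPM (49.1 to 96.2) in these 33, on 37 UMIs in 3 cells. Of these UMIs, 26 lay in 1 cell, and leaving it out gave 21.4 CPM. Some of the 33 cells with CD8 also met the Foxp3 rule, and in the 31 that did not, Tox was at 337 CPM (285 to 396). In the 9 with Foxp3, Tox was at 2030 CPM (1832 to 2243), with a Tox UMI in 9 of 9 cells, and 128 of its 385 UMIs lay in 1 cell. Tox was thus higher in the Cxcr5+ cells with Foxp3 than in both other sets, beyond the intervals. In the 13 Cxcr5+ cells with a UMI of Pdcd1, which encodes the receptor PD-1, Sh2d1a was at 103 CPM (61.9 to 160), on 19 UMIs in 6 cells. Bcl6 was at 54.1 (25.9 to 99.5) in these cells. In the same 13 cells Tox was at 1271 CPM (1114 to 1444), with a UMI in 11 of them, above the 613 of the rest. The 1227 CPM of the rest with a Cd4 UMI lay within its interval. Il21 was at 168 CPM in the 13 cells, or 29.5 without the richest cell. A Tox UMI was found in 84.6% of the 13 cells and in 83.4% of all 302 T cells with Pdcd1, and an Il21 UMI in 15.4% and 19.2%.

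The other genes of the follicular helper programme gave a similar count in Cxcr5+ cells. Of 11 measurable receptor and costimulation genes, 0 were at least 2-fold higher than in the rest and 2 at least 2-fold lower. These were Cd40lg, the ligand that activates B cells through CD40, at 0.361 times (0.287 to 0.449) and Cd200 at 0.466 times (0.321 to 0.656). In all CD8+ cells they were at 0.134 and 0.454 times the rest, and in all Foxp3+ cells at 0.190 and 1.48 times. Among the 73 Cxcr5+ cells, 33 met the CD8 rule and 9 the Foxp3 rule. The part of this mix in the ratios of Cxcr5+ cells was not tested. Of 10 transcription factor genes 0 were higher and Pou2af1 was lower, and 6 SLAM family genes, 9 genes that restrain the programme and 7 genes of migration to the follicle held none past 2-fold. Of 9 cytokine genes 4 were lower, Il3, Il17a, Il22 and Csf2, and Il10 was higher, at 129 CPM against 46.2, or 2.80 times (2.28 to 3.40). Over all 8890 genes, 2.44% were at least 2-fold higher and 4.66% at least 2-fold lower. Il3 UMIs lay in 2 T cells with Il21 and 8 without, Il17a UMIs in 4 and 21, and Il22 UMIs in 1 and 1. Their 0 UMIs in the 73 Cxcr5+ cells therefore cannot show a lower level there. Of 5 measurable genes of the Treg list, Il10 and Ikzf2, at 2.13 times (1.89 to 2.38), passed 2-fold in Cxcr5+ cells. Ctla4 was at 1.75 times, while Il2ra, at 0.979 times, and Tigit, at 1.14 times, had intervals that hold 1. Of the 73 cells, 9 met the Foxp3 rule.

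Of 5 measurable genes of the B cell list outside the gate, 4 were at least 2-fold higher in Cxcr5+ cells than in the rest, 3 of them genes of the MHC class II pathway. Cd74, the invariant chain of MHC class II, was at 1133 CPM against 377, and H2-Aa at 411 against 157. Of 5 measurable myeloid genes Cst3 was higher, at 208 CPM against 79.6, and S100a8 and S100a9 were lower, at 0.133 and 0.105 times. Cd74, H2-Aa and Cst3 were also more than 2-fold higher in the type 2 cytokine and Foxp3+ cells. The 13 B cell genes outside the gate were at a median of 1.46% of their level in B cells (0 to 30.6%), with Cr2 at 0, and 4 of the 73 cells had a UMI of any of the 7 most specific ones. Several hashtags were found on 30.1% of the Cxcr5+ cells and on 19.3% of the rest, and Scrublet marked 15.1% and 8.09%. Of the 10 genes with the highest ratio, among them Ifi202b, Edn1 and Ccl22, a chemokine of dendritic cells, each lay in 1 to 5 cells, and all 103 Ifi202b UMIs lay in 1 cell. The genes with the lowest ratio were Il17a, Ltf, Il17f, Lcn2 and Il23r, each at 0 UMIs in Cxcr5+ cells. If UMIs were independent, this would put Il17a at least 18.4-fold lower and Il23r at least 6.87-fold lower. These limits cover counting error only. Il17a UMIs lay in few T cells, 4 with Il21 and 21 without, so 0 UMIs in 73 cells cannot show a lower level. The part of RNA from other cells in the values of the 5 genes was not tested.

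Il21 was higher in T cells with Il4, Il5 and Il13 than in the rest. It was at 137 CPM (109 to 168) against 49.0 in the rest, a ratio of 2.79 (2.20 to 3.50), while 17 of the 57 cells, or 29.8% (18.4 to 43.4), had an Il21 UMI. It was 1 of the 5 genes past 2-fold, where 3.81% of 7982 genes were higher and 6.58% lower. The richest cell held 20 of the 87 UMIs, and leaving it out gave 106 CPM. Against the rest with a Cd4 UMI, which itself had 109 CPM, the ratio was 1.25 and no longer past 2-fold.

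The remaining genes showed smaller ratios in these cells. Bcl6 was at 50.2 CPM, a ratio of 0.775 (0.527 to 1.10), Sh2d1a at 40.8, a ratio of 1.21 (0.778 to 1.79), and Tox2 at 33.0, a ratio of 1.44 (0.877 to 2.25). Each of these intervals holds 1. Tox was lower, at 496 CPM (443 to 554), a ratio of 0.809 (0.721 to 0.906). The costimulation genes Icos, at 502 CPM against 231, and Tnfrsf4, which encodes OX40, at 918 against 403, were more than 2-fold higher, as was Il2 at 7986 CPM against 552. Lower were Slamf6 at 0.469 times, Tcf7 at 0.456 times and Lef1 at 0.496 times. Also lower were Ccr7 at 0.200 times, Il6ra at 0.359 times and Sh2d1b1 at 0.462 times, on 6, 5 and 4 UMIs. Il22 had 0 UMIs in these cells, but its UMIs lay in only 1 T cell with Il21 and 1 without.

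The 5 genes with the highest ratio in these cells were Prss34 and Mcpt8, proteases of basophils, and Il9, Il6 and Car8, which lay in 1 to 6 cells each. Of the 57 cells, 3 had at least 2 UMIs of Mcpt8 and Prss34. These 3 cells held 3 Il21 UMIs, and Il21 was at 144 CPM in the other cells of the group, so the difference was not smaller without them. Cd74, at 1353 CPM against 377, H2-Aa, at 619 against 157, and Cst3, at 265 against 79.6, were higher in the 57 cells, none of which had a UMI of the 7 most specific B cell genes, and 26.3% of them carried several hashtags, against 19.3% of the rest. The part of RNA from other cells in the Il21 level was not tested. The 35 cells gated as basophils outside the T cell gate had no Il21 UMI, which allows up to 6.29 CPM.

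Foxp3+ T cells had more Tox and Tox2 and less Il21 and Bcl6 than the rest. Tox was at 1157 CPM (1120 to 1196) against 613, a ratio of 1.89 (1.81 to 1.97), with a UMI in 201 of 220 cells, or 91.4% (86.8 to 94.7), against 55.8% of the rest. Tox2 was at 41.7 CPM (34.9 to 49.5) against 22.9, a ratio of 1.82 (1.47 to 2.25). Neither ratio reached 2-fold, although that of Tox was 2.10 as a mean over cells and 2.29 without cells over 20000 UMIs, and Tox was at 1227 CPM in the rest with a Cd4 UMI, so that the ratio over those cells was 0.943. The Tox2 difference was less stable. Thinned to 1000 UMIs per cell, Tox2 was at 31.8 CPM (12.8 to 65.6) in Foxp3+ cells and at 27.2 (19.2 to 37.6) in the rest. Without thinning, Tox2 was at 34.8 CPM (26.7 to 44.6) in the rest with a Cd4 UMI, which overlaps the interval of Foxp3+ cells.

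Il21 was at 15.8 CPM (11.7 to 20.8) in Foxp3+ cells, 0.323 times the rest (0.237 to 0.431), with 23 of its 50 UMIs in 1 cell, and the ratio was 0.542 without cells over 20000 UMIs. Bcl6 was at 38.3 CPM (31.7 to 45.7), a ratio of 0.590 (0.483 to 0.716), and Sh2d1a at 23.4 CPM, a ratio of 0.691 (0.532 to 0.887). Il21 was 1 of the 5 genes past 2-fold, where 8.66% of 11439 genes were higher and 6.2% lower. The Treg markers Ctla4, at 1619 CPM against 293, and Ikzf2, at 1241 against 170, were 5.52 and 7.30 times higher. In the same cells the factors Maf and Batf were 2.52 and 2.29 times higher, Prdm1, an antagonist of Bcl6, was 2.66 times higher, and Tcf7 and Lef1 were 0.292 and 0.430 times the rest. Cd74, H2-Aa and Cst3 were also higher, at 2.46, 2.63 and 4.90 times, and Gzma and S100a8, genes of NK cells and neutrophils, lower, at 0.347 and 0.0129 times. The part of RNA from other cells in these ratios was not tested.

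CD8+ T cells had less Il21, Bcl6, Tox and Tox2 than the rest. Il21 was at 13.1 CPM (10.6 to 16.0), 0.267 times the rest (0.213 to 0.332), with a UMI in 16 of 599 cells, and the interval overlaps that of Foxp3+ cells. Bcl6 was at 36.3 CPM (32.1 to 40.9), a ratio of 0.560 (0.486 to 0.644) and of 0.483 over the rest with a Cd4 UMI, and its interval overlaps that of Foxp3+ cells. Tox was at 353 CPM (340 to 367), a ratio of 0.576 (0.551 to 0.603), and Tox2 at 14.2 CPM (11.6 to 17.1), a ratio of 0.619 (0.489 to 0.778). Sh2d1a was at 28.9 CPM, a ratio of 0.852 (0.719 to 1.01). Il21 was 1 of the 5 genes past 2-fold, where 2.17% of 12920 genes were higher and 7.72% lower. Cd40lg, at 0.134 times, Maf, at 0.301 times, and Tnfrsf4, at 0.455 times, were lower in the same cells.

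**Figure D2:**
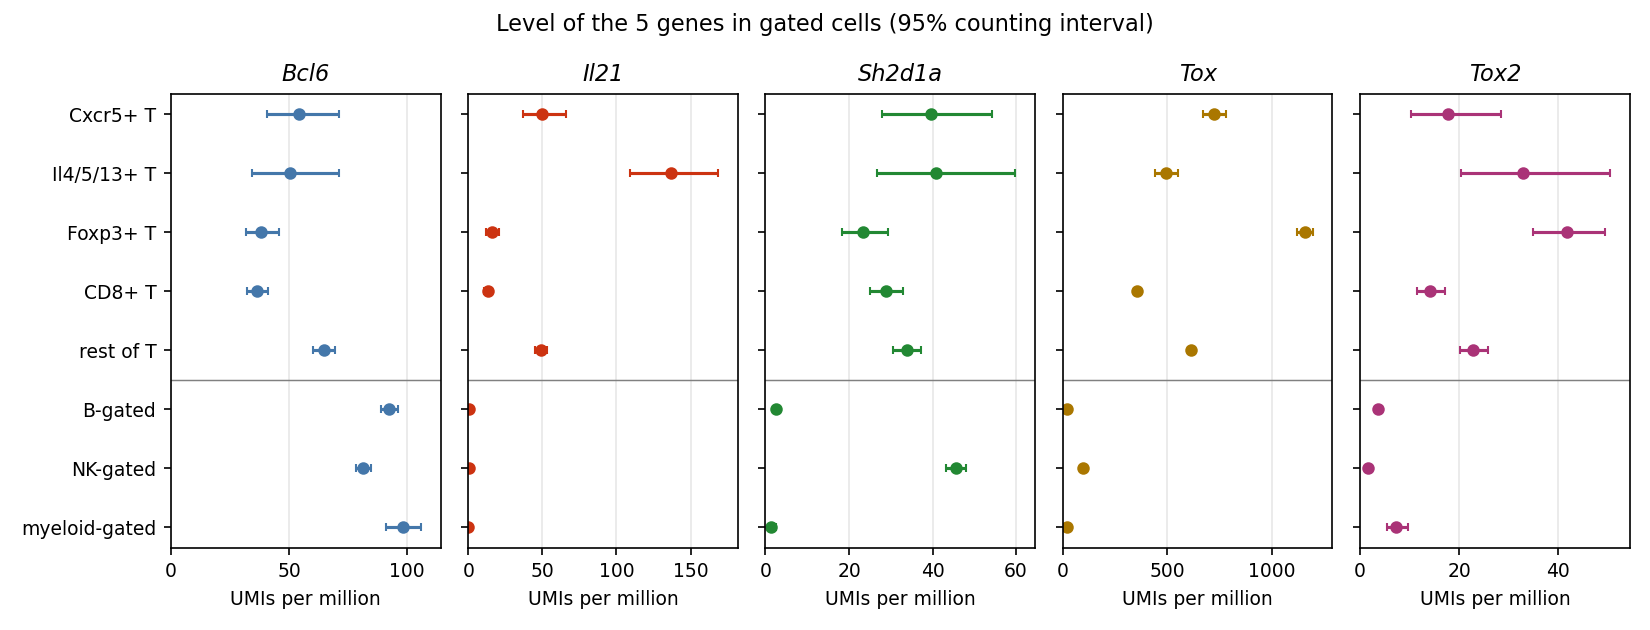
CPM of each gene in the T cell groups (above the line) and in cells gated as B cells without T cell UMIs, NK cells and myeloid cells (below it), with 95% counting intervals as bars and each axis starting at 0. Il21, Tox and Tox2 are high in T cells, Sh2d1a in T and NK-gated cells, and Bcl6 is higher in the B-, NK- and myeloid-gated cells than in any T cell group plotted.

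Outside T cells the genes fell into different patterns. Bcl6 was at 98.1 CPM (91.0 to 106) in 503 myeloid-gated cells, at 92.5 (88.9 to 96.1) in 2435 B cells without T cell UMIs and at 81.4 (78.2 to 84.7) in 4378 NK-gated cells, all above the 52.5 CPM (49.6 to 55.6) of all T cells. Myeloid-gated and B cells did not differ beyond their intervals. Sh2d1a was at 45.6 CPM (43.3 to 48.1) in NK-gated cells, in which SAP also acts, above 31.5 (29.2 to 33.9) in T cells, and at 2.61 in B cells and 1.41 in myeloid-gated cells. Tox was at 595 CPM in T cells, 96.1 in NK-gated cells, 22.0 in myeloid-gated and 21.0 in B cells, the last 2 not beyond their intervals. Tox2 was at 22.7 CPM in T cells, then 7.33 in myeloid-gated cells, 3.70 in B cells and 1.64 in NK-gated cells. In the comparison of NK-gated cells with the rest of the T cells, Il21, Tox and Tox2 were at least 2-fold lower and none higher, where 8.02% of 14085 genes were lower and 9.22% higher.

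Il21 was a T cell gene in these data. It was at 35.9 CPM (33.5 to 38.4) in T cells, with a UMI in 7.36% of the cells at a median depth of 8494 UMIs. In NK-gated cells it was at 0.468 CPM, with a UMI in 0.0914% of the cells at a median depth of 5581, and in B cells without T cell UMIs at 0.617 CPM, with a UMI in 0.616% at 9588. Myeloid-gated cells had 0 UMIs, which allows up to 0.423 CPM.

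B cells served as the check for droplets that hold more than 1 cell. Of 2809 cells with at least 2 UMIs of Cd79a and Ms4a1, 231 also had at least 2 T cell UMIs, at a median of 22998 UMIs against 9588 in B cells without T cell UMIs. These mixed droplets held 16.9% of the UMIs of all B cells, but 81.1% (73.8 to 87.0) of their Il21 UMIs, 80.1% (78.8 to 81.4) of Tox, 53.7% of Tox2 and 50.3% of Sh2d1a. They held 14.3% (13.1 to 15.6) of the Bcl6 UMIs. The Il21 and Tox of B cells thus lay mostly in mixed droplets, and Bcl6 did not. In the comparison of all B cells with the rest of the T cells, Bcl6 was at 1.37 times (1.27 to 1.49) and the other 4 genes were at least 2-fold lower, where 8.8% of 13869 genes were higher and 13.9% lower.

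Within the rest of the T cells Il21 and Tox followed Cd4. In the 189 cells with a Cd4 UMI, Il21 was at 109 CPM (94.6 to 126), Tox at 1227 (1176 to 1280), Bcl6 at 75.2 (63.0 to 89.0), Sh2d1a at 48.2 (38.6 to 59.6) and Tox2 at 34.8 (26.7 to 44.6). In the 211 cells with Trdc, the constant gene of the T cell receptor delta chain, Il21 had 1 UMI and was at 0.456 CPM, Tox at 321, Bcl6 at 60.6, Sh2d1a at 27.8 and Tox2 at 7.29. Bcl6 had overlapping intervals in both, and the other 4 genes were lower in the cells with Trdc beyond their intervals. The 959 cells with neither gene had 48.8 CPM of Il21 and 556 CPM of Tox.

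**Figure D3:**
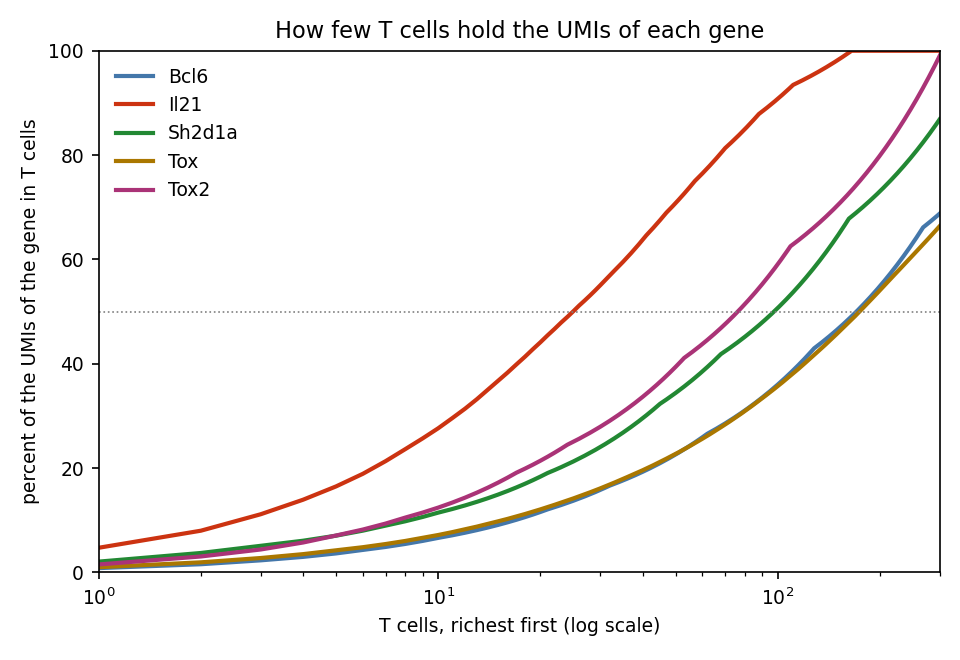
Percent of the UMIs of each gene in the 2242 T cells that the richest cells hold, with cells ordered from the richest on a log axis. The Il21 line passes 50% at 25 cells, those of Tox2 and Sh2d1a at 77 and 98, and those of Bcl6 and Tox at 171 and 175.

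The genes were spread over T cells to different degrees. Tox had 13683 UMIs in 1260 T cells, with a median of 6 UMIs in the cells that had any, and Bcl6 1208 UMIs in 677 cells, with a median of 1. Il21 had 825 UMIs in 165 cells, of which the 25 richest cells held 50%, 23 had at least 10 UMIs and the richest had 39. Sh2d1a had 724 UMIs in 395 cells and Tox2 523 UMIs in 305 cells. Cells with Il21 were not deeper than the other T cells, with a median of 8151 UMIs against 8525, while cells with Bcl6 were, with 10307 against 7856. Of the T cells, 553 had none of the 5 genes, 265 had at least 3 and 3 had all 5.

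The 165 T cells with Il21 were compared with the 2077 without it. They lay mostly in the rest, with 121 cells, while 17 met the type 2 cytokine rule, 16 the CD8 rule, 9 the Cxcr5 rule and 8 the Foxp3 rule. Of the 599 CD8+ cells and 211 cells with Trdc, 16 and 1 had Il21. A Cd4 UMI was found in 32.7% of the cells with Il21 and in 11.7% of those without. No ratio over cells with Cd4 alone was taken here, and the part of this mix in the ratios was not tested. In the cells with Il21, Tox was at 1517 CPM (1459 to 1576) against 520, a ratio of 2.92 (2.79 to 3.04). It had a UMI in 146 cells, or 88.5% (82.6 to 92.9), against 53.6%, and was at 1227 CPM in the rest with a Cd4 UMI. Sh2d1a was at 58.7 CPM (47.8 to 71.3) against 29.3, a ratio of 2.00 (1.61 to 2.48). Tox2 was at 1.63 times (1.23 to 2.14) and Bcl6 at 1.48 times (1.22 to 1.78). Over the pool, all 4 other genes were thus higher in cells with Il21. Of the 4, 2 passed 2-fold, where 3.16% of 10115 genes were higher and 6.76% lower. By hashtag, against all T cells of the same hashtag, only Tox was higher in each. Sh2d1a was at 37.5 CPM against 37.6 in hashtag 10, which held 60 of the cells with Il21. Bcl6 was at 28.1 against 59.3 in hashtag 11, and Tox2 at 28.5 against 33.3 in hashtag 9, each on 6 UMIs. In the other hashtags these genes were higher, though on 3 Tox2 UMIs in hashtag 11. With each cell thinned to 1000 UMIs, the ratio was 3.50 for Tox, 3.80 for Sh2d1a and 1.26 for Tox2 in one random draw and 3.32, 3.09 and 1.03 in another, and that of Sh2d1a was between 1.81 and 2.53 when the cells of 1 hashtag were left out.

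**Figure D4:**
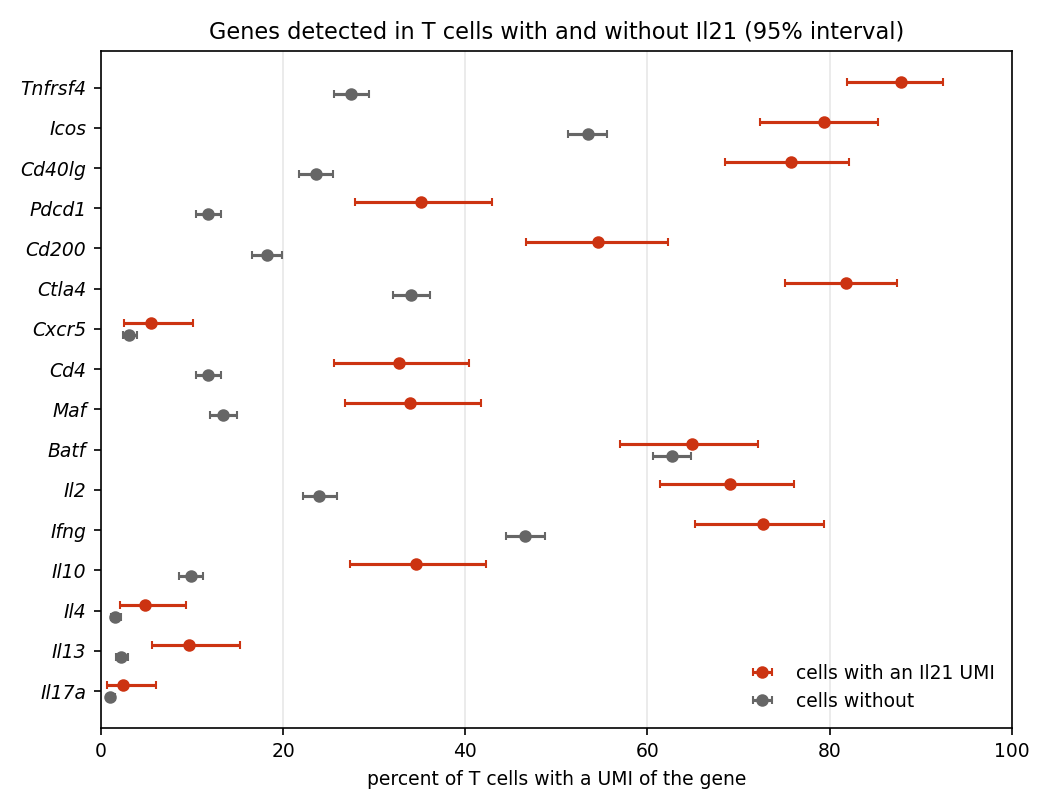
Percent of T cells with at least 1 UMI of each gene, in the 165 cells with an Il21 UMI and in the 2077 cells without, with exact 95% intervals as bars. Tnfrsf4, Cd40lg, Ctla4 and Il2 are found in 69.1% to 87.9% of the cells with Il21 and in 23.6% to 34.1% of the others, while the intervals overlap for Cxcr5, Batf, Il4 and Il17a.

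In T cells with Il21, 5 of 11 measurable receptor and costimulation genes were at least 2-fold higher and 0 lower. Cd40lg was at 679 CPM against 113, a ratio of 6.02 (5.61 to 6.46), with a UMI in 75.8% of the cells against 23.6%. Pdcd1 was 3.36 times higher (2.69 to 4.16), Cd200 4.44 times (3.96 to 4.98), Tnfrsf4 2.52 times and Icos 2.11 times. The cells without Il21 include most CD8+ cells. In CD8+ cells Cd40lg, Cd200 and Tnfrsf4 were at 0.134, 0.454 and 0.455 times the rest, and Pdcd1 and Icos at 0.732 and 0.802 times. Others of this list stayed within 2-fold. Btla was found in 57.6% of the cells with Il21 against 37.8%, Cd28 in 70.9% against 57.3% and Il6ra in 19.4% against 12.0%, each beyond the intervals. The intervals overlapped for Il21r, in 35.2% against 32.4%, Il6st, in 41.2% against 34.0%, and Il4ra, in 27.9% against 33.1%. Of 6 SLAM family genes, Slamf6 and Cd84 were higher, at 2.35 and 2.08 times. Of 10 transcription factor genes Maf, which acts in follicular helper cells, was higher, at 3.79 times (3.23 to 4.42), and Tcf7 and Id3 were lower, at 0.366 and 0.307 times. Ccr7, which guides naive T cells into lymphoid tissue, was at 0.498 times. Cxcr5 was found in 5.45% of the cells with Il21 and in 3.08% of the others, and its CPM ratio of 1.56 had an interval of 0.779 to 2.86, which holds 1.

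The same cells carried many cytokine genes. Il2, the neighbour of Il21 whose promoter is printed above, was at 3532 CPM against 367, a ratio of 9.63 (9.31 to 9.96), with a UMI in 69.1% of the cells against 24.0%. Il10 was 7.12 times higher (6.29 to 8.04), with a UMI in 34.5% against 9.87%, and Ifng 3.28 times (3.20 to 3.36), with a UMI in 72.7% against 46.6%. Of 9 measurable cytokine genes 8 were at least 2-fold higher and 0 lower, but the UMIs of Il3, Il17a and Il22 lay in 2, 4 and 1 of the 165 cells. In these cells Cd74 and H2-Aa were also higher, at 2.15 and 2.36 times, and 28.5% of them carried several hashtags, against 21.1% of all T cells. Scrublet marked 12.1% of the cells with Il21 as doublets, against 8.43% of all T cells. Whether droplets with more than 1 cell take part in these values was not tested, and no cytokine ratio was recomputed without them. The Tox ratio, which was recomputed, was 3.07 in cells with 1 hashtag and 3.16 without cells that Scrublet marked.

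Detection of the other genes together was weaker. A Bcl6 UMI was found in 40.6% (33.0 to 48.5) of the T cells with Il21 and in 29.4% (27.4 to 31.4) of those without, and a Tox2 UMI in 16.7% of the cells with Tox and in 9.67% of those without. After thinning, Tox was found in 39 of 59 cells with Il21, or 66.1%, against 27.1% of the others, while 4 of 100 cells with Bcl6 had Il21, against 2.57% of the others.

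Over 10 cell groups that share no cell (Cxcr5+, type 2 cytokine, Foxp3+ and CD8+ T cells, 3 groups of the rest, and B-, NK- and myeloid-gated cells), the gene whose log2(CPM + 1) was most like that of Il21 among 12401 genes was Cd40lg, with a Pearson r of 0.98. Tnfrsf4 was most like Tox2 (0.96), Xlr4a most like Tox (0.99), Tnik most like Sh2d1a (0.98) and Trim12a most like Bcl6 (0.94). Next came B630019A10Rik and Hvcn1 for Il21, Prelid2 and Ptgfrn for Tox2, Zfp36l1 and Msi2 for Tox, Skap1 for Sh2d1a, and AW549877 and Csnk1e for Bcl6. Among the 5 genes, Il21 and Tox2 had an r of 0.84 and Il21 and Tox of 0.79. Bcl6 had a negative r with each of the others, from -0.41 to -0.65. These r include the B-, NK- and myeloid-gated cells, with Bcl6 at 92.5, 81.4 and 98.1 CPM and Il21 at 0.617, 0.468 and 0. In T cells, Bcl6 and Il21 were at 75.2 and 109 CPM in the rest with Cd4 and at 36.3 and 13.1 in CD8+ cells. In the rest with Trdc they were at 60.6 and 0.456 CPM. An r over T cell groups alone was not taken. The groups come from 1 library and differ in depth, and these values describe them without a test.

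Of the T cells, 1651 carried 1 hashtag, 473 several and 118 none. The hashtags are samples whose condition is unknown here, so their values are given side by side. Bcl6 was at 38.7, 56.9, 59.3 and 36.7 CPM in T cells of hashtags 9, 10, 11 and 12. Il21 was at 27.2, 53.1, 24.1 and 28.2 CPM, and Sh2d1a at 26.5, 37.6, 36.5 and 23.3. Bcl6 and Sh2d1a were both higher in hashtags 10 and 11, and Il21 was higher in hashtag 10 alone. Tox was at 666, 649, 600 and 675 CPM, and Tox2 at 33.3, 28.3, 13.6 and 23.3.

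Several differences between T cell groups had the same direction in all 4 hashtags. Tox was higher in Foxp3+ cells than in the rest in 4 of 4, at 1.74 to 2.27 times. Against the rest with a Cd4 UMI the direction was mixed. Foxp3+ cells had 1185 CPM of Tox against 1119 in hashtag 9 and 1448 against 1180 in hashtag 10. They had 1283 against 1364 in hashtag 11 and 1418 against 1441 in hashtag 12. Tox2 was higher in Foxp3+ cells in 3 of 4 only, at 0.557 to 1.84 times. Il21 was lower there in 4 of 4, at 0 to 0.717 times, but on 0 to 2 cells with an Il21 UMI per hashtag. In CD8+ cells Bcl6, Il21, Tox and Tox2 were lower in 4 of 4, Bcl6 at 0.474 to 0.561 times. Il21 was at 0.0321 to 0.707 times in CD8+ cells, on 1 to 6 cells with a UMI per hashtag. In hashtag 12 its 26 UMIs lay in 1 CD8+ cell. In B cells Bcl6 was higher in 4 of 4, at 1.05 to 1.73 times. In Cxcr5+ cells Bcl6 was at 0.801 to 0.969 times on 3 to 19 UMIs per hashtag, and its pooled ratio was not distinguishable from 1. Il21 in Cxcr5+ cells was higher in 2 and lower in 2, from 0.0955 to 3.99 times, on 7 to 16 cells per hashtag. In type 2 cytokine cells Il21 was higher in 3 of 4, from 0.417 to 10.3 times. This rests on 4, 4, 1 and 1 cells with an Il21 UMI in hashtags 9, 10, 11 and 12, among 9, 16, 6 and 11 cells.

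**Figure D5:**
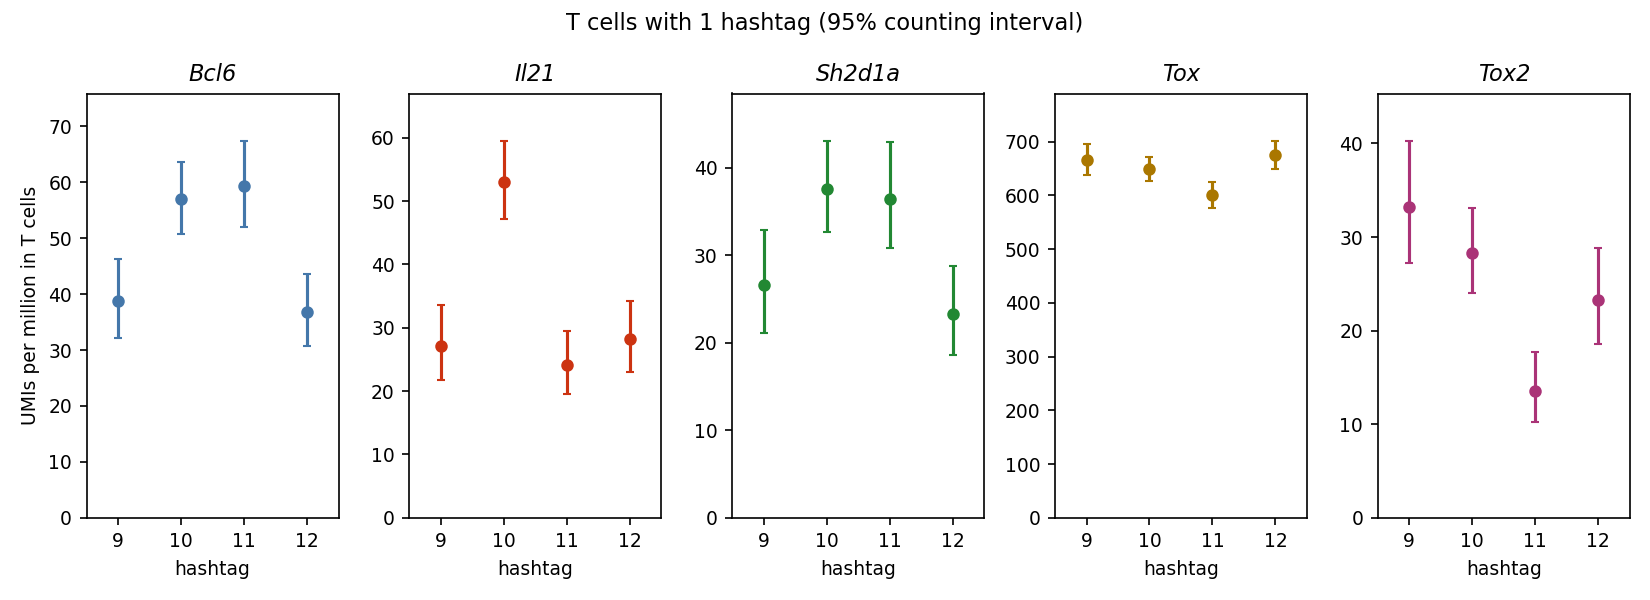
CPM of each gene in T cells with 1 hashtag, for hashtags 9, 10, 11 and 12, with 95% counting intervals as bars and each axis starting at 0. Il21 is at 53.1 in hashtag 10 and between 24.1 and 28.2 in the other hashtags, Tox2 is lowest in hashtag 11 at 13.6, and Tox lies between 600 and 675.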

How the data were processed

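Droplet single-cell RNA and hashtag libraries of 1 pool of spleen cells were analysed. The authors deposited unnormalized UMI counts per gene, hashtag and barcode, made with Cell Ranger on GRCm38. The release is 7.2.0 in the methods and labels but 7.0.0 in the matrix header. UMIs are counts of molecules, so PCR copies do not enter them. Reads were not used here.

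The 5 genes, the gates, the gene lists and the rule for named genes were chosen with earlier results of these data known. Named are the 5 genes, genes of the lists past 2-fold or defining a list, the genes with the highest and lowest ratio in each group (10 and 5 for Cxcr5+ cells, otherwise 5 and 3), and for each of the 5 genes the 3 genes most like it among those with at least 100 UMIs. Not all of these are printed, and some are not reported here. The comparisons of cells with and without Il21 and of NK-gated cells with the rest, and the subgroups of Cxcr5+ cells with Pdcd1, were chosen after values had been seen.

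UMIs were summed per group. CPM carries exact Poisson, a share exact Clopper-Pearson and a ratio of CPM exact conditional binomial 95% intervals. A count of 0 was given the limit of 3 counts. A gene was counted as higher or lower at a 2-fold ratio if at least 5 UMIs were expected in the smaller group, with gate genes left out. The limits count UMIs as independent, although cells hold many UMIs of 1 gene. NK-gated cells had at least 2 UMIs of Ncr1 and Klre1 and fewer than 2 T cell UMIs, and myeloid-gated cells at least 5 UMIs of Lyz2, Csf1r, Cst3 and Csf3r. On simulated data with 200 genes changed 4-fold in Cxcr5+ cells, 200 of 200 were recovered, with 223 of the other genes of 8913 called. The simulated counts held counting error alone, and the changed genes had at least 4 times the expected UMIs of the calling limit. The simulation therefore cannot show how genes near that limit, or with UMIs gathered in few cells, are called.

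Doublets were not removed in the values given. Scrublet (scanpy 1.11.5, expected rate 0.1) marked 1304 of 16325 cells (7.99%) and HTODemux (Seurat 5.3.0, R 4.3.3, quantile 0.85) called hashtags in T and B cells, and both served as alternatives. Cells were thinned to 1000 UMIs with a fixed seed, and a second draw was added as an alternative, with 1 T cell left out as shallower. Python 3.11.15, NumPy 2.4.6, SciPy 1.17.1, pandas 2.3.3 and matplotlib 3.10.9 were used. Therapies were not compared, because no source used here pairs hashtags with conditions.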

Additional observations from a re-analysis of the deposited data

Results flagged for a closer look

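Over 25 sets of 4 hashtags (5 genes in T cells, the rest, B cells, CD8+ and Foxp3+ cells), 2 had a value that stood far from the other 3 by Dixon's gap test, which flags about 1 in 20 sets by chance. The gap was 0.859 of the range for Il21 in T cells and 0.904 for Tox in B cells. Il21 in T cells was at 53.1 CPM in hashtag 10, against 24.1 to 28.2 in the other hashtags, with an Il21 UMI in 60 of 568 cells (10.6%) against 4.5% to 5.93%. Tox in B cells was at 190.5 CPM in hashtag 10, against 40.1 to 54.6 in the others. In B cells without T cell UMIs it was at 30.6 CPM in hashtag 10, against 7.08 to 11.5, and 60 of the 686 B cells of hashtag 10 were mixed droplets, at 874 CPM. Both flagged values come from the same hashtag, whose condition is unknown here.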

How the results depend on the processing

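No paired analysis was possible because the hashtags carry no replicate numbers of the conditions and no comparison between cell groups was tested. Of 465 values of the ratios and gene counts recomputed with other settings, 334 stayed within the counting interval, or within 1.5 times for a count, and 131 did not, and no ratio that was past 2-fold in the report crossed 1. Ratios that were not past 2-fold there did cross it, such as those of Il21 and Sh2d1a in Cxcr5+ cells. The cause of each shift was not tested. The values that moved follow as ratios over the rest. In cells that met 1 rule alone, the ratio was 1.14 for Bcl6, 0.627 for Il21 and 0.802 for Tox in Cxcr5+ cells, 1.81 for Tox in Foxp3+ cells, 0.184 for Il21 and 0.527 for Tox in CD8+ cells. Thinned to 1000 UMIs per cell, it was 2.16 for Sh2d1a and 1.51 for Tox2 in Cxcr5+ cells, 1.57 for Bcl6, 4.03 for Il21 and 0.700 for Tox in type 2 cytokine cells, 1.17 for Tox2 in Foxp3+ cells, 0.160 for Il21 and 0.530 for Tox in CD8+ cells, 1.67 for Bcl6, 0.0477 for Il21, 0.0675 for Sh2d1a and 0.0644 for Tox in B cells. With a second random draw of the thinning, added after the data were seen, it was 1.36 for Bcl6, 0.454 for Il21, 0.413 for Sh2d1a and 0 for Tox2 in Cxcr5+ cells, 0.291 for Bcl6 and 0.508 for Tox in type 2 cytokine cells, 0.452 for Il21, 1.98 for Tox and 0.834 for Tox2 in Foxp3+ cells, 0.0829 for Il21, 0.605 for Sh2d1a and 0.477 for Tox in CD8+ cells, 1.79 for Bcl6, 0.0354 for Il21, 0.0673 for Tox and 0.170 for Tox2 in B cells. Over the rest with a Cd4 UMI it was 0.457 for Il21 and 0.590 for Tox in Cxcr5+ cells, 1.25 for Il21 and 0.404 for Tox in type 2 cytokine cells, 0.145 for Il21, 0.485 for Sh2d1a, 0.943 for Tox and 1.20 for Tox2 in Foxp3+ cells, 0.483 for Bcl6, 0.120 for Il21, 0.598 for Sh2d1a, 0.288 for Tox and 0.407 for Tox2 in CD8+ cells, 1.18 for Bcl6, 0.0378 for Il21, 0.0967 for Sh2d1a, 0.0878 for Tox and 0.196 for Tox2 in B cells. Without cells over 20000 UMIs it was 1.48 for Il21 in Cxcr5+ cells, 3.54 for Il21 and 0.914 for Tox in type 2 cytokine cells, 0.454 for Bcl6, 0.542 for Il21 and 2.29 for Tox in Foxp3+ cells, 0.544 for Tox in CD8+ cells, 0.0409 for Il21, 0.0804 for Sh2d1a, 0.0603 for Tox and 0.200 for Tox2 in B cells. Without the richest cell of each group it was 0.508 for Il21 and 0.987 for Tox in Cxcr5+ cells, 0.719 for Tox in type 2 cytokine cells, 0.187 for Il21 in Foxp3+ cells, 0.210 for Il21 in CD8+ cells, 0.0684 for Il21 in B cells. With at least 2 Cxcr5 UMIs it was 2.13 for Il21, 1.80 for Tox and 0.169 for Tox2 in Cxcr5+ cells. With at least 4 T cell UMIs it was 1.01 for Tox in Cxcr5+ cells, 2.14 for Il21 in type 2 cytokine cells, 1.54 for Tox in Foxp3+ cells, 0.495 for Tox in CD8+ cells, 0.146 for Tox in B cells. As a mean over cells it was 1.37 for Tox in Cxcr5+ cells, 2.10 for Tox in Foxp3+ cells, 0.201 for Il21 in CD8+ cells, 1.56 for Bcl6, 0.0412 for Il21, 0.0933 for Sh2d1a, 0.0800 for Tox and 0.197 for Tox2 in B cells. With at least 10 UMIs of Il4, Il5 and Il13 it was 3.53 for Il21 and 0.663 for Tox in type 2 cytokine cells. In cells with 1 hashtag it was 0.212 for Il21 and 1.98 for Tox in Foxp3+ cells, 0.534 for Tox in CD8+ cells, 0.152 for Tox and 0.224 for Tox2 in B cells. With at least 2 Foxp3 UMIs it was 0.131 for Il21 in Foxp3+ cells. Without cells with UMIs of 7 further B cell genes it was 1.97 for Tox in Foxp3+ cells. With at least 2 Cd8a and Cd8b1 UMIs it was 0.513 for Tox in CD8+ cells. Without cells marked by Scrublet it was 0.0514 for Il21, 0.0332 for Sh2d1a, 0.104 for Tox and 0.215 for Tox2 in B cells. Leaving out the cells of 1 hashtag at a time gave 0.523 to 1.38 for Il21 and 0.832 to 1.49 for Tox in Cxcr5+ cells, 0.616 to 1.46 for Sh2d1a and 0.626 to 0.978 for Tox in type 2 cytokine cells, 0.289 to 0.439 for Il21 and 1.81 to 1.95 for Tox in Foxp3+ cells, 0.549 to 0.613 for Tox in CD8+ cells, 0.134 to 0.201 for Tox in B cells. At the 2-fold limit the genes called were 217 higher and 414 lower in Cxcr5+ cells, 304 and 525 in type 2 cytokine cells, 991 and 709 in Foxp3+ cells, 281 and 997 in CD8+ cells and 1221 and 1932 in B cells. At a 3-fold limit the genes called were 66 higher and 167 lower in Cxcr5+ cells, 110 higher and 182 lower in type 2 cytokine cells, 333 higher and 351 lower in Foxp3+ cells, 71 higher and 430 lower in CD8+ cells, 743 higher and 1076 lower in B cells. With at least 10 expected UMIs the genes called were 109 higher and 205 lower in Cxcr5+ cells, 191 higher and 244 lower in type 2 cytokine cells, 440 lower in Foxp3+ cells, 134 higher in CD8+ cells. Depth limits the thinned values, since each of Bcl6, Il21, Sh2d1a and Tox2 had 3 to 5 UMIs left in the 73 Cxcr5+ cells in the first draw. For each of these genes the first and the second draw gave ratios on opposite sides of 1 there. In the first draw Bcl6 was at 54.8 CPM in Cxcr5+ cells against 56.0 in the rest, and Il21 at 54.8 against 52.3. The Il21 ratio in Cxcr5+ cells lay on both sides of 1, between 0.454 and 2.13. The Il21 ratio stayed below 0.5 in CD8+ cells in every setting, and in Foxp3+ cells in every setting but the one without cells over 20000 UMIs.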
